A study of Mus musculus with 12 samples.

Results

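The cadherin and protocadherin genes described here were the protein-coding genes of the Gencode vM1 annotation whose symbol begins with Cdh and a digit or with Pcdh, and whose raw count averaged at least 10 over the 12 libraries. Of 59 protein-coding genes with such a symbol, 34 met that minimum, out of 11791 protein-coding genes that met it and 37310 annotated genes in all. They were 13 classical cadherins (3 of type I and 10 of type II), the atypical cadherin Cdh13, 11 non-clustered protocadherins (4 of the δ1 and 5 of the δ2 subfamily, Pcdh15 and Pcdh20) and 9 clustered protocadherins (1 α, 7 β and 1 γ gene). Since the minimum was set on the counts, the presence of these genes in the libraries is not a finding. Just over the minimum were Cdh6, Pcdhb9 and Pcdhb18, with mean counts of 11, 11.1 and 11.25, and just under it were Pcdhb12, Pcdhb13 and Pcdhb11, with 9.08, 8.58 and 7.83. In both fractions 32 of the 34 averaged at least 10 counts, while Cdh6 (5.83 in TRAP, 16.2 in input) and Pcdhb16 (9.50 and 17) met the minimum through input, so a lower level in TRAP is in part built into their selection.

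Translating ribosome affinity purification (TRAP) was carried out on ventral hippocampus (vHPC) of WT and FosB KO mice to ask which transcripts of the neurons that project to nucleus accumbens (NAc) depend on FosB and its splice form ΔFosB. All mice were C57BL/6 and carried Rosa26 eGFP/L10a, a Cre-dependent fusion of GFP to the ribosomal protein L10a, and the KO mice were in addition FosB fl/fl. Retrograde HSV-Cre was given into NAc 3 weeks before collection, so that recombination was limited to cells reached by the virus, and the WT mice received Cre as well. Each of the 4 groups (TRAP and input of WT, TRAP and input of KO) held 3 libraries, numbered 1 to 3 in WT and 2 to 4 in KO, and each number is a pool of mice that gave both a TRAP and an input library. The labels state 3 mice in each pool, and libraries whose label lacks the word input were read as TRAP. Input was RNA of the whole vHPC punch, which holds cells with and without Cre. These are bulk samples, in which fewer cells of a type and less RNA per cell cannot be told apart.

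Cadherins are calcium-dependent adhesion proteins of the cell surface. Classical cadherins hold synaptic partners together and are tied to actin by catenins, whereas the δ-protocadherins of the non-clustered group adhere weakly and signal to actin through partners of their cytoplasmic tails. The clustered protocadherins lie in tandem arrays, and neurons choose among the promoters of an array, which gives single cells their own set of surface isoforms for self-recognition.

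Gene counts ran from 3416030 to 5614089 per library, and 3 counts corresponded to 0.534 to 0.878 CPM, a count scaled to library size. WT input 1 had counts on fewer genes than any other input library, 15678 against 17255 to 18090. Fosb, the targeted gene, stood at 45.1, 32.0 and 40.1 CPM in TRAP of WT and at 29.3, 18.8 and 21.5 CPM in TRAP of KO, counted over the whole gene. The floxed allele loses only some of the exons, and from reads along the gene the authors reported that its expression was almost absent in KO TRAP. Counts over the whole gene also take in the other exons, so they do not measure how complete the knockout was. All KO TRAP libraries were below all WT TRAP libraries for Fosb, with a log2 ratio of -0.76 ± 0.21 (SE) and an adjusted p of 0.337 in edgeR with Benjamini-Hochberg adjustment. In input Fosb was also lower in every KO library than in any WT library, with 30.2, 22.2 and 24.5 CPM in WT and 17.1, 16.0 and 14.8 CPM in KO. The log2 ratio in input was -0.68 ± 0.22, and the difference of the ratios in TRAP and input was -0.08 ± 0.30, so a difference in Fosb between genotypes particular to TRAP was not detected. Of 10 glutamate neuron markers, 6 were higher in TRAP than in input and none was lower, and of 7 ventral CA1 and subiculum markers tested, 4 were higher and 1 was lower. P-values measure the spread between pools, and values near 3 counts are limited by counting error. All 12 astrocyte markers were lower in TRAP, where they summed to 439 to 535 CPM against 2572 to 3145 CPM in input. Likewise 11 of 12 oligodendrocyte markers, 11 of 11 microglia markers and 10 of 12 GABA neuron markers were lower in TRAP. Cspg4 of the oligodendrocyte list and Cck of the GABA list were higher, with log2 ratios of 0.95 ± 0.22 and 0.74 ± 0.07. Over all genes tested in edgeR, 19.6% were higher and 22.5% lower at an adjusted p under 0.05. At 0 in all TRAP libraries were Tek of the vascular list and Pou3f1 of the ventral CA1 and subiculum list. What share of the differences between TRAP and input below moved with glia, GABA neurons or vascular cells was not tested.

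Sequence upstream of the start is shown for 5 protocadherins that had an entry in the RefSeq promoter table. Pcdh8 and Pcdh7 were higher in TRAP than in input, and Pcdh15 and Pcdh10 were lower. Pcdh19 had among the smallest p-values between genotypes. Each sequence is the 250 bases before the transcription start in RefSeq on GRCm38.p6, on the strand of the gene. Capitals mark the GC box (GGGCGG on either strand) or the E-box CACCTG (either strand).
Pcdh8: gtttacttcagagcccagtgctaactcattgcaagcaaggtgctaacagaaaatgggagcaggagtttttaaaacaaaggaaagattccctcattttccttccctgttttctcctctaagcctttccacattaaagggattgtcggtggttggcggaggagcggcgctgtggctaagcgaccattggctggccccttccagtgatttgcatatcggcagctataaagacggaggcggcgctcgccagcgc
Pcdh7: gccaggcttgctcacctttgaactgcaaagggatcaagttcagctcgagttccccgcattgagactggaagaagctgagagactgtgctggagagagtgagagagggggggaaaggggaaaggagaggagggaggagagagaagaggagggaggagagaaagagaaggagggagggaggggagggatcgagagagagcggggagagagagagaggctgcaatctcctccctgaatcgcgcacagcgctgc
Pcdh15: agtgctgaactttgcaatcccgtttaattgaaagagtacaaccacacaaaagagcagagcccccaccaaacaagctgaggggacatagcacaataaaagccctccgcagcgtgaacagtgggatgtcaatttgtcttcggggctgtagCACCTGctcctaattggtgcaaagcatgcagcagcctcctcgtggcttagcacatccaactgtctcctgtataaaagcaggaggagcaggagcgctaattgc
Pcdh10: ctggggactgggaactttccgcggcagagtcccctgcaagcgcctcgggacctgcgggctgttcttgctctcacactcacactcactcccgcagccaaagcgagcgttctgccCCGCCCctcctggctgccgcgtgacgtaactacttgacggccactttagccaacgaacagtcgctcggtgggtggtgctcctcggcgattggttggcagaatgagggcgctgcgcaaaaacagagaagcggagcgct
Pcdh19: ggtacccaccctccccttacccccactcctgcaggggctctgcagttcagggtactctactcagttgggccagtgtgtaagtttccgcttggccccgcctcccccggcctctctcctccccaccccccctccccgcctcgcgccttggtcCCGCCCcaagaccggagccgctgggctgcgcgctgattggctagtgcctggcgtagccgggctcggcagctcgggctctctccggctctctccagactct
They lie at chr14:79771313-79771562 (minus strand), chr5:57717831-57718080 (plus strand), chr10:73821617-73821866 (plus strand), chr3:45378148-45378397 (plus strand) and chrX:133688994-133689243 (minus strand). Of the 34 genes, 19 had an entry in the RefSeq promoter table, with 22 windows among 32851. All clustered protocadherins lacked an entry, as did Pcdh1, Pcdh11x, Cdh2, Cdh4, Cdh11 and Cdh13, so the values that follow do not cover them. The 8-base CRE (TGACGTCA) and the AP-1 motif TGANTCA, the letters bound by Fos and Jun dimers, were in 0 of the 22 windows on either strand, against 1.55% and 6.75% of all windows. The GC box was in 8 of 22 windows and in 32.7% of all, and CACCTG was in 3 of 22 and in 17.2% of all. Median GC content was 59.6% in the 22 windows and 52.4% over all, and the median number of CG pairs was 10.5 against 6. These are matches of letters in a short window and say nothing of binding.

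The clustered protocadherins need a note on what was counted. In this annotation the gene named Pcdha11 (ENSMUSG00000007440.7, chromosome 18 of mm9, 37089939 to 37347311) holds 10 transcripts of the α array, each with its own first exon, and Pcdhgc5 (ENSMUSG00000023036.7, chromosome 18, 37833989 to 38001527) holds 10 transcripts of the γ array. Their counts are therefore sums over isoforms and do not tell which promoter was in use. They overlap Gm10545 and Gm16882, so that 88.7% and 94.3% of their exon bases are their own, and the strand setting of the counting is not given in the sources used here. The β genes are counted singly, and 14 of 21 fell under the minimum. Reads with more than 1 place in the genome were set aside by the counting, and of 75-base stretches of the exons, 8.93% of Cdh2, 3.55% of Pcdha11 and 2.50% of Pcdhb9 had another place within 2 mismatches.

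The 34 genes spanned a wide range of levels, and the highest means were those of single δ-protocadherins, while the δ1 gene Pcdh11x (1.17 CPM per kb) and the δ2 gene Pcdh18 (0.65) lay among the β genes. Per kilobase of exon that overlaps no other gene, and over all 12 libraries, Pcdh1 led with 23.1 ± 4.28 CPM per kb (SD, n = 12 libraries), followed by Pcdh9 with 17.1 ± 4.71, Pcdh7 with 12.9 ± 2.71 and Pcdh20 with 11.6 ± 2.14. Over the 12 libraries together Pcdh1 stood above Pcdh9 by more than the SD of either, while Pcdh9 and Pcdh7, and each neighbour further down to Cdh8, did not differ beyond their spread over libraries. The ranks below it depended on the fraction: Pcdh8 was 3 in WT TRAP and 9 in both input groups, Pcdh10 was 12 in WT TRAP and 4 in WT input, and Pcdh7 was 2 in KO TRAP and 5 in both input groups. The lead of Pcdh1 held in TRAP, with 25.6 ± 2.0 CPM per kb against 13 ± 4.15 for Pcdh9 in WT and 27.6 ± 3.19 against 15.5 ± 2.55 in KO (SD, n = 3 pools). In input both were within their spread, with 19.6 ± 1.90 for Pcdh1 and 17.4 ± 2.60 for Pcdh9 in WT, and Pcdh9 was first in KO, with 22.6 ± 4.12 against 19.4 ± 2.13. Cdh2, which encodes N-cadherin, the main classical cadherin of excitatory synapses, led the classical group with 10.1 ± 1.75 CPM per kb. Among type II genes, Cdh11 (7.89 ± 1.57), Cdh9 (6.95 ± 1.84) and Cdh22 (6.11 ± 1.81) had the highest means over the 12 libraries, and Cdh6 (0.98 ± 0.62) had the lowest, next to Cdh7. That order differed by fraction: Cdh6 was lowest in TRAP and Cdh7 in input. Cdh9 stood above Cdh22 by more than the SD of either in KO input, with 8.97 ± 0.78 against 5.21 ± 0.88 CPM per kb (SD, n = 3 pools), and below it in WT TRAP, with 4.90 ± 1.93 against 7.02 ± 2.49, within the spread. The 7 β genes lay between 0.53 and 1.18 CPM per kb, and Pcdhgc5 and Pcdha11, divided by all of their own exons although each transcript uses a part of them, stood at 10.8 ± 1.27 and 3.83 ± 0.58. Pcdh15, a component of the tip link of hair cells, stood at 0.25 ± 0.08 (WT) and 0.30 ± 0.22 CPM per kb (KO) in TRAP and at 0.96 ± 0.12 (WT) and 0.96 ± 0.14 (KO) in input.

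**Figure D1:**
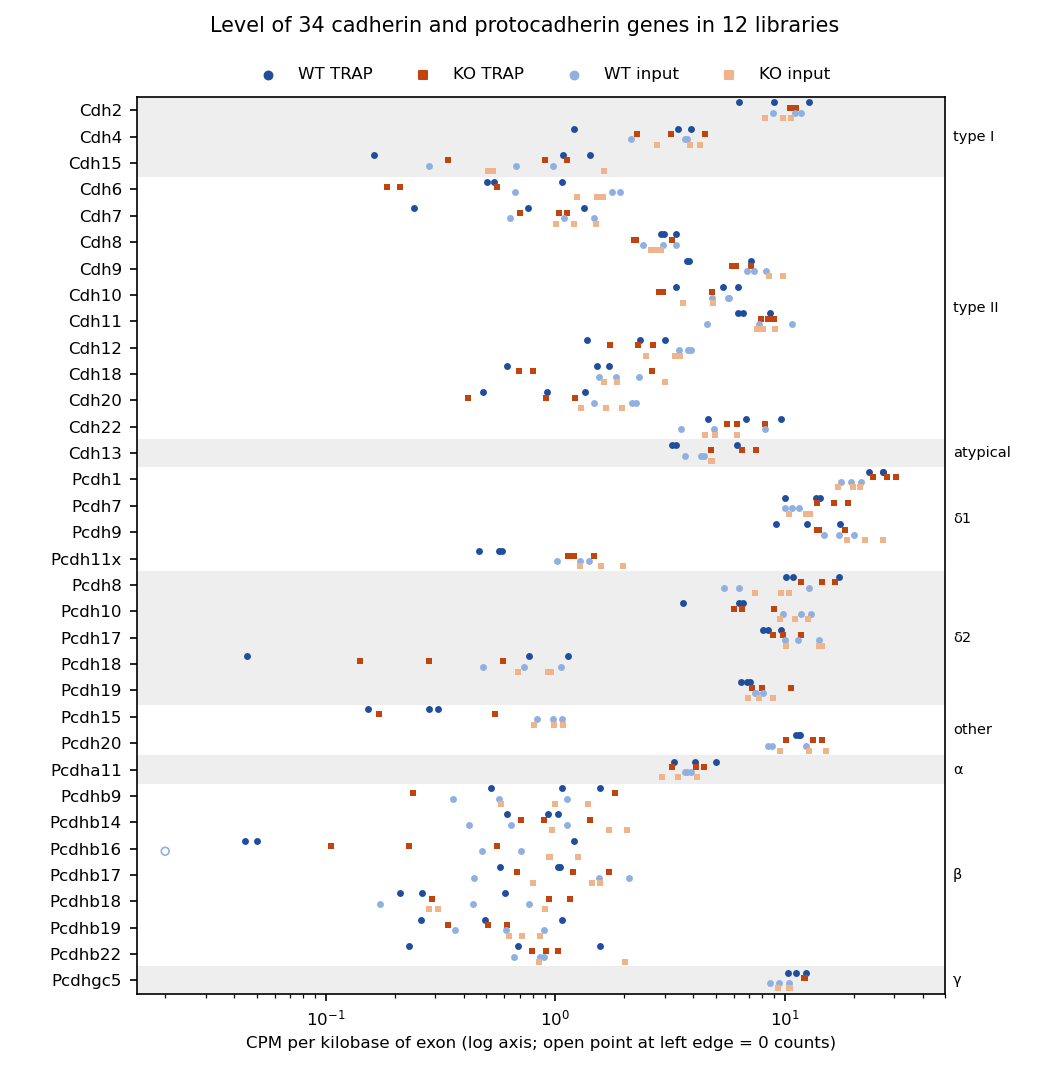
Level of each of the 34 genes in the 12 libraries, in CPM per kilobase of exon on a log axis, grouped by class (labels at right), with circles for WT, squares for KO, dark for TRAP and pale for input. Pcdh1 stands farthest right in TRAP, with libraries of Pcdh9 reaching past it in input, the β genes lie at the left with means of 0.53 to 1.18, and the open circle is WT input 1, with 0 counts on Pcdhb16.

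Added over genes, the 34 took 1227 to 1617 CPM (WT) and 1454 to 1669 CPM (KO) of TRAP libraries, and 1346 to 1494 CPM (WT) and 1422 to 1576 CPM (KO) of input libraries. The sums of the 4 groups overlapped. WT TRAP 1 held the highest sum of its group, 1617 CPM, against 1227 in WT TRAP 2 and 1321 in WT TRAP 3. Non-clustered protocadherins made up the largest part, with 679 ± 70.5 CPM (WT) and 797 ± 67.5 CPM (KO) in TRAP, and 731 ± 48.5 CPM (WT) and 785 ± 47.5 CPM (KO) in input (SD, n = 3 pools each). Clustered protocadherins summed to 420 ± 50.1 CPM in WT TRAP and 364 ± 17.8 in WT input, mostly from Pcdhgc5, and classical cadherins to 242 ± 69.1 and 278 ± 4.93 CPM in the same groups.

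TRAP was compared with input over both genotypes to ask how transcripts of the family on ribosomes of labelled neurons stand against the surrounding tissue. Of the 34 genes, 13 differed at an adjusted p under 0.05, while 42.2% of the 13214 genes tested did, so the share of the family was near that of all genes. The direction was mixed: 4 genes were higher in TRAP and 9 were lower, beside 19.6% and 22.5% of all genes. By class, 8 of 11 non-clustered protocadherins, 4 of 13 classical cadherins, 1 of 9 clustered protocadherins and not the atypical Cdh13 differed. The median log2 ratio was -0.40 for non-clustered protocadherins, -0.22 for classical cadherins and -0.19 for clustered protocadherins, against -0.01 over all genes tested. Precision was unequal between classes, with a median standard error of 0.14, 0.20 and 0.40 on the log2 scale in that order. DESeq2 called the same 13 genes, and so did the fit with the pool as a block. Direction was shared by 6 of 6 pools for 13 genes (4 higher and 9 lower in TRAP), beside 38.6% of all genes. This set was not that of the called genes: Pcdh9 was called but lower in 5 of 6 pools, and Cdh18 was lower in 6 of 6 but not called.

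Pcdh8 (ENSMUSG00000036422.4, chromosome 14 of mm9, 80166587 to 80171119), the activity-induced synaptic protocadherin also called arcadlin, had the highest ratio of TRAP to input in the family. It stood at 69.0, 43.5 and 40.6 CPM in TRAP of WT mice and 47.1, 58.2 and 66.4 in TRAP of KO mice, while input held 50.8, 21.8 and 25.3 (WT) and 29.6, 41.7 and 38.4 CPM (KO). TRAP was higher in each of the 6 pools, although the fractions overlapped, since WT input 1 and KO input 3 exceeded the lowest TRAP library. The log2 ratio was 0.66 ± 0.20 (SE), with an adjusted p of 0.0161 in edgeR with Benjamini-Hochberg adjustment. Without KO pool 4 the adjusted p was 0.0625.

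Pcdh1 (ENSMUSG00000051375.9, chromosome 18, 38345569 to 38371707), the δ1 protocadherin with the highest mean level over the 12 libraries, separated the fractions without overlap. Its values were 226, 227 and 197 CPM in TRAP of WT mice and 236, 205 and 258 in TRAP of KO mice, while input held 182, 150 and 165 (WT) and 167, 145 and 180 CPM (KO). Every TRAP library lay above every input library. The fractions did not overlap, in either direction, for 3 genes of the family (Pcdh1, with TRAP higher, and Pcdh10 and Pcdh15, with TRAP lower) and for 22.5% of all genes tested. The log2 ratio of Pcdh1 was 0.45 ± 0.08, with an adjusted p of 6.57e-05 (edgeR with Benjamini-Hochberg adjustment). Pcdh7, another δ1 member, had a log2 ratio of 0.35 ± 0.11 and was higher in TRAP in 6 of 6 pools, by as little as 0.01 in WT pool 2. Pcdh9 and Pcdh11x, the remaining δ1 members, went the other way, with log2 ratios of -0.48 ± 0.14 and -0.77 ± 0.22, so that the subfamily was divided. For Pcdh9, TRAP was lower in 5 of 6 pools, and the adjusted p of 0.00706 (edgeR, Benjamini-Hochberg) became 0.0517 without WT pool 2. For Pcdh11x, the adjusted p of 0.00552 (edgeR, Benjamini-Hochberg) became 0.0610 without KO pool 4.

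Pcdh10 (ENSMUSG00000049100.8, chromosome 3, 45182320 to 45238488), a δ2 protocadherin that recruits the WAVE actin regulator and takes part in synapse elimination, was lower in TRAP. It stood at 69.8, 38.3 and 67.4 CPM in TRAP of WT mice and 96.2, 64.1 and 69.3 in TRAP of KO mice, while input held 126, 105 and 138 (WT) and 134, 102 and 118 CPM (KO). No TRAP library reached the lowest input library, and the log2 ratio was -0.85 ± 0.14, with an adjusted p of 9.96e-05 (edgeR with Benjamini-Hochberg adjustment). Pcdh17, a δ2 member of presynaptic zones, was also lower in each of 6 pools, with a log2 ratio of -0.40 ± 0.11. Pcdh19, the X-linked gene of an epilepsy of girls, and Pcdh18 did not pass the test, with log2 ratios of -0.01 ± 0.10 and -0.78 ± 0.48.

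Pcdh15 (ENSMUSG00000052613.8, chromosome 10, 72562090 to 74112482) had the lowest ratio of the family. Its values were 6.04, 3.29 and 6.64 CPM in TRAP of WT mice and 11.7, 3.65 and 3.66 in TRAP of KO mice, while input held 22.9, 21.1 and 17.9 (WT) and 23.2, 17.3 and 21.1 CPM (KO). The highest TRAP library, KO TRAP 2, was below the lowest input library. The log2 ratio was -1.83 ± 0.26, with an adjusted p of 1.82e-06 in edgeR with Benjamini-Hochberg adjustment, and its ratio within pools ran from -2.51 to -0.96. Pcdh20 did not pass the test, with 0.11 ± 0.12 on the log2 scale.

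**Figure D2:**
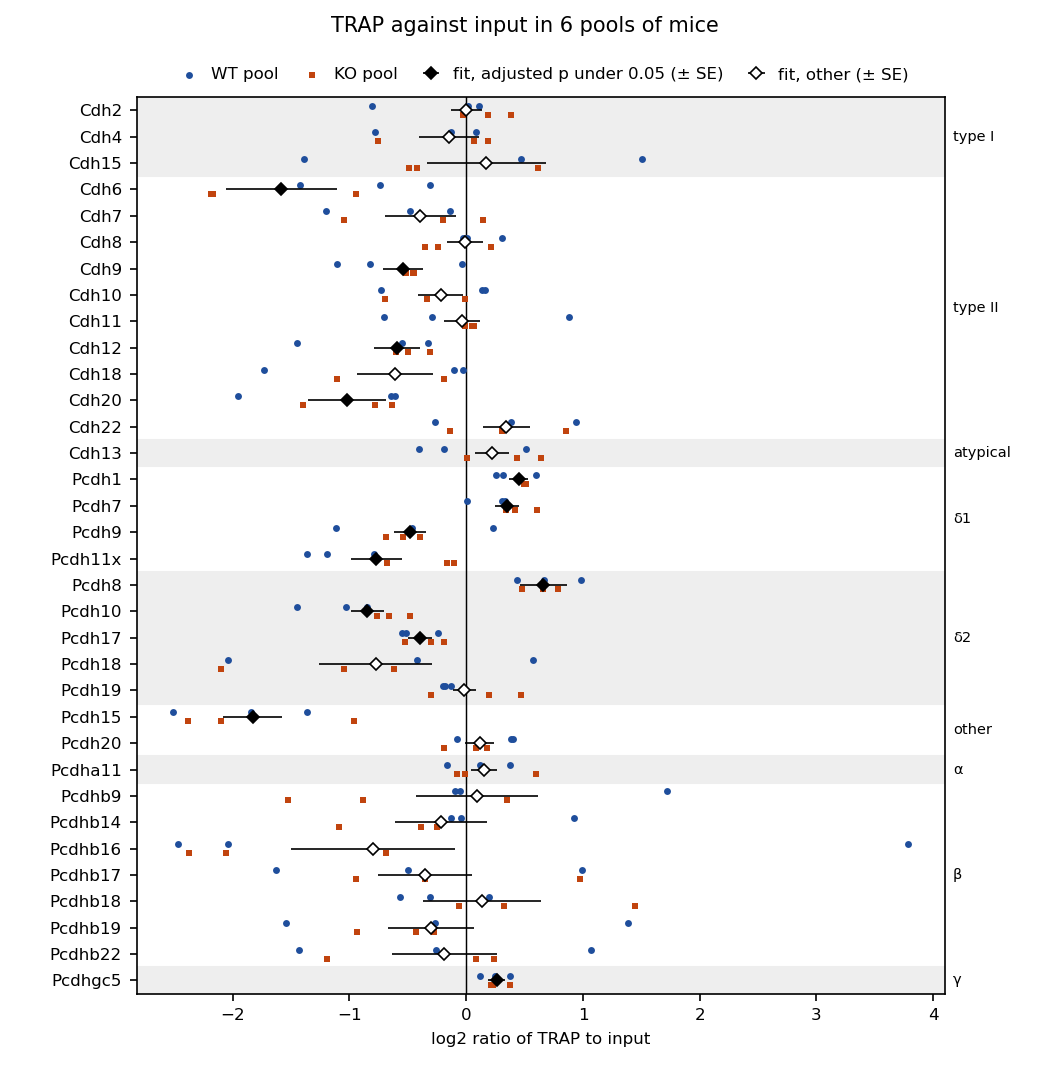
Log2 ratio of TRAP to input for each of the 34 genes, with a circle for each WT pool, a square for each KO pool and a diamond for the fitted ratio with its standard error (filled where the adjusted p was under 0.05). Of the 13 filled diamonds, 4 lie right of 0 (Pcdh8, Pcdh1, Pcdh7 and Pcdhgc5) and 9 lie left of it, with Pcdh15 and Cdh6 farthest to the left.

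Among classical cadherins, all 4 genes called were of type II and were lower in TRAP. Cdh6, expressed in subsets of developing neurons, had 1.42, 2.82 and 1.33 CPM in TRAP of WT mice and 0.56, 0.49 and 1.46 in TRAP of KO mice, while input held 4.64, 5.04 and 1.76 (WT) and 4.26, 4.00 and 3.27 CPM (KO). Its log2 ratio of -1.59 ± 0.48 rested on 2 to 22 counts per library and on a gene selected through input, and its adjusted p of 0.00837 (edgeR, Benjamini-Hochberg) became 0.0501 without KO pool 2. Cdh20 had 1.95, 5.40 and 3.72 CPM in TRAP of WT mice and 1.67, 3.65 and 4.88 in TRAP of KO mice, while input held 9.0, 8.70 and 5.95 (WT) and 5.21, 6.66 and 7.85 CPM (KO), with a log2 ratio of -1.02 ± 0.33. Without WT pool 1 the adjusted p of Cdh20 went from 0.0152 to 0.0613 (edgeR, Benjamini-Hochberg). Cdh12 and Cdh9 completed the group, with log2 ratios of -0.59 ± 0.20 and -0.54 ± 0.17. Cdh9 is known from synapses of mossy fibres on CA3 neurons. Leaving out single pools raised the adjusted p of Cdh12 to at most 0.0891 and that of Cdh9 to at most 0.0917 (edgeR, Benjamini-Hochberg). Beside this group, 5 of 9 dentate gyrus and CA3 markers tested were lower in TRAP and 1 was higher, and whether they share a source with Cdh9 was not tested. Type I cadherins did not pass, and Cdh2 was level between fractions, with a log2 ratio of 0.00 ± 0.13. In WT mice Cdh2 measured 103, 51.0 and 72.5 CPM in TRAP and 95.5, 89.3 and 71.8 CPM in input, with overlap. Cdh4, which encodes R-cadherin, and the muscle cadherin gene Cdh15 had log2 ratios of -0.15 ± 0.26 and 0.17 ± 0.51, and Cdh13, whose product T-cadherin is held in the membrane by a lipid anchor, had 0.22 ± 0.15.

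Among the clustered genes, Pcdhgc5 alone passed the test over both genotypes. Pcdhgc5 stood at 339, 308 and 282 CPM in TRAP of WT mice and 335, 332 and 335 in TRAP of KO mice, while input held 286, 237 and 260 (WT) and 286, 256 and 289 CPM (KO). TRAP was higher in each of the 6 pools, by 0.12 to 0.38 on the log2 scale, with a fitted log2 ratio of 0.26 ± 0.07 and an adjusted p of 0.00405 (edgeR with Benjamini-Hochberg adjustment). Pcdha11 had a log2 ratio of 0.15 ± 0.11 and did not pass the test. None of the 7 β genes passed over both genotypes, with log2 ratios from -0.80 to 0.13 and standard errors with a median of 0.45. The lowest of these, Pcdhb16, turned on WT pool 1, which held 6.40 CPM in TRAP beside 0 counts in input, while TRAP was lower in each of the other 5 pools. Without WT pool 1 it was called, with a log2 ratio of -2.63, and the selection of Pcdhb16 through input bears on that call. The β genes with the highest level per kilobase, Pcdhb17, Pcdhb14 and Pcdhb22, had log2 ratios of -0.35 ± 0.40, -0.21 ± 0.39 and -0.19 ± 0.45. Summed over all 21 protein-coding β genes, the array stood at 36.5 ± 6.96 CPM (WT) and 42.0 ± 6.29 CPM (KO) in TRAP, and 39.2 ± 9.45 CPM (WT) and 51.8 ± 2.72 CPM (KO) in input (SD, n = 3 pools). At this depth a change in single β genes of the size of their standard errors was not detectable. How far above them a change had to be was not determined.

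Within each genotype, with 6 libraries in place of 12, fewer genes passed. In WT 5 of 33 genes tested differed between TRAP and input, beside 24.9% of all genes. They were Pcdh15, Pcdh10, Pcdh11x and Pcdh17, which were lower, and Pcdh1, which was higher. In KO 9 of 34 differed, beside 29.1% of all genes: Pcdh1, Pcdh8, Pcdh7 and Pcdhgc5 were higher, and Pcdh15, Pcdh10, Pcdh9, Cdh6 and Pcdhb16 were lower, with Cdh6 and Pcdhb16 selected through input. By unadjusted p, 8 genes in WT and 14 in KO were under 0.05, beside 36.1% and 39.3% of all genes. With the pool as a block, Pcdh8 was also called in WT and Pcdh17 also in KO. The count in WT was 9 without pool 1 and 2 without pool 2 or pool 3. That in KO was 6 without pool 2, 7 without pool 3 and 4 without pool 4. In KO, Pcdhgc5 lost its call when pool 2, 3 or 4 was left out, and Cdh6 and Pcdhb16 when pool 2 or 3 was. The difference of the TRAP to input ratio between KO and WT was fitted as an interaction term, for which 0 of 34 genes passed at an adjusted p under 0.05 in edgeR (0.00757% of all genes). None was under an unadjusted p of 0.05 by edgeR or DESeq2, beside 2.71% of all genes in edgeR. The smallest unadjusted p-values over all 12 libraries in edgeR's quasi-likelihood test were those of Pcdh11x (0.0583), Pcdh10 (0.135) and Pcdh19 (0.139).

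KO was compared with WT in TRAP libraries to ask whether transcripts of the family depend on FosB in the labelled neurons. None of the 32 genes tested passed at an adjusted p under 0.05 in edgeR's quasi-likelihood test or in DESeq2, and 0.0682% of all 11727 genes did in edgeR. By unadjusted p, 3 genes were under 0.05 in edgeR and 4 in DESeq2, beside 6.05% of all genes in edgeR. The 3 of edgeR were non-clustered and higher in KO (Pcdh11x, Pcdh7 and Pcdh19), as were 2.68% of all genes by that rule and direction. Libraries of the genotypes did not overlap, with KO higher, for 2 of the 34 genes (Pcdh11x and Pcdh19), beside 5.74% of all genes. Of 11 non-clustered protocadherins, 10 had a log2 ratio above 0, against 6 of 12 classical cadherins, 5 of 8 clustered protocadherins and 49.5% of all genes. The ratio of Pcdh15, counted among the 10, ran from -0.54 to 0.52 when single pools were left out. The median log2 ratio was 0.24, 0.03 and 0.10 in these groups, and 0.00 over all genes. Genes of a class were measured in the same 6 libraries and are not independent of each other, and this comparison shares its libraries with those of TRAP and input.

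Pcdh11x (ENSMUSG00000034755.11, chromosome X of mm9, 117403868 to 118024228) had the smallest p between genotypes. It stood at 5.15, 4.23 and 5.31 CPM in TRAP of WT and at 10.3, 13.4 and 11 CPM in TRAP of KO, so that each KO library was above each WT library. In input it stood at 9.29, 11.7 and 12.8 CPM in WT and at 11.6, 14.4 and 17.9 CPM in KO, which overlapped. The log2 ratio of KO to WT was 1.23 ± 0.37 in TRAP, with an unadjusted p of 0.00306 and an adjusted p of 0.445 in edgeR with Benjamini-Hochberg adjustment. In input the log2 ratio was 0.38 ± 0.28, and the difference of both ratios was 0.86 ± 0.44, the interaction given above. An exact permutation test of 3 pools against 3 on log2(CPM + 0.5) gave p = 0.1 (two-sided), the smallest it allows.

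Pcdh7 (ENSMUSG00000029108.7, chromosome 5, 58109260 to 58520590) stood at 88.3, 62.5 and 84.7 CPM in TRAP of WT and at 102, 86.3 and 117 CPM in TRAP of KO, with KO TRAP 3 below WT TRAP 1. Its log2 ratio of KO to WT was 0.37 ± 0.15, with an unadjusted p of 0.0194 and an adjusted p of 0.753 (edgeR, Benjamini-Hochberg). Pcdh19 (ENSMUSG00000051323.9, chromosome X, 130117402 to 130223532) stood at 72.5, 66.3 and 70.1 CPM in TRAP of WT and at 73.9, 81.6 and 110 CPM in TRAP of KO. The groups did not overlap for Pcdh19, but KO TRAP 2 exceeded WT TRAP 1 by little. Its log2 ratio was 0.34 ± 0.15, with an unadjusted p of 0.0272 and an adjusted p of 0.784 (edgeR, Benjamini-Hochberg). Next in order of p were Cdh13, Pcdhb18 and Pcdh17, with log2 ratios of 0.54 ± 0.27, 1.15 ± 0.66 and 0.22 ± 0.13.

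**Figure D3:**
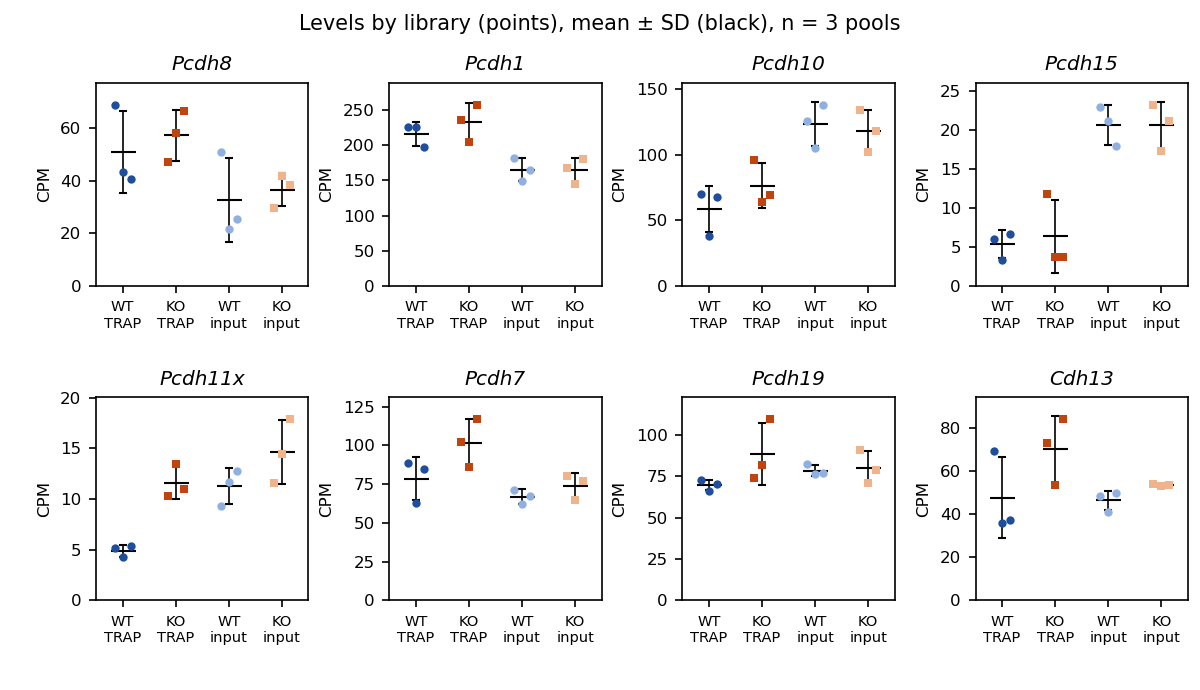
Levels in CPM of 8 genes in each library, by group, with points for the 3 pools of a group and black bars for their mean and SD. TRAP libraries lie below all input libraries for Pcdh10 and Pcdh15 and above them for Pcdh1, and KO TRAP lies above WT TRAP for Pcdh11x and Pcdh19.

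Among single pools left out, WT pool 1 moved the TRAP comparison most. For Cdh13, WT TRAP 1 stood at 69.1 CPM while WT TRAP 2 and 3 stood at 35.9 and 37.4, and KO TRAP stood at 72.8, 53.4 and 84.0 CPM. Without WT pool 1, the log2 ratio of Cdh13 was 0.93 and its adjusted p was 0.0253 in edgeR with Benjamini-Hochberg adjustment, the only call that leaving out a pool added in this comparison. That pool left out, 0.166% of all genes were called. Under an unadjusted p of 0.05 there were then 9 members, all higher in KO, beside 4.31% of all genes, and without each other pool in turn the count was 2 to 5. In the order WT TRAP 1, 2 and 3, Pcdh8 (69.0, 43.5 and 40.6 CPM) and Cdh2 (103, 51.0 and 72.5) were also highest in the first. For Pcdh10 (69.8, 38.3 and 67.4 CPM), WT TRAP 2 was instead the library that stood apart. Among genes with a log2 ratio below 0, Cdh10 had the smallest p, with a log2 ratio of -0.50 ± 0.30, and stood at 19.2, 12 and 22.3 CPM in TRAP of WT and at 10.0, 10.5 and 17.1 CPM in TRAP of KO.

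In the whole vHPC punch, no gene of the family passed between genotypes. In edgeR 0 of 32 were under an adjusted p of 0.05 in either direction (0.0078% of all genes were higher in KO and 0.0234% lower), and so in DESeq2. By unadjusted p, 1 gene was under 0.05 in edgeR, Pcdh9, and 2 in DESeq2, beside 2.89% of all genes in edgeR. Pcdh9 stood at 55.2, 74.4 and 64.3 CPM in WT input and at 82.9, 69.2 and 99.8 CPM in KO input, which overlapped, with a log2 ratio of 0.38 ± 0.16. The β genes Pcdhb14 and Pcdhb16 came next, with log2 ratios of 1.08 ± 0.53 and 1.34 ± 0.65, and WT input 1, the library with fewer genes detected, held 1.45 and 0 CPM of them. Pcdh20, Cdh13 and Pcdh11x followed, with log2 ratios of 0.34 ± 0.19, 0.21 ± 0.15 and 0.38 ± 0.28. KO libraries were above all WT libraries, without overlap, for 3 of the 34 genes (Cdh13, Cdh9 and Pcdhb16), beside 4.2% of all genes, and below all of them for none. Of the 32 genes, 22 had a log2 ratio above 0, beside 50% of all genes. By class these were 9 of 11 non-clustered protocadherins, 6 of 12 classical cadherins and 6 of 8 clustered protocadherins, with medians of 0.15, -0.02 and 0.37. In TRAP the counts were 10 of 11, 6 of 12 and 5 of 8. Classes were not tested against each other, and both fractions came from the same pools of mice.

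**Figure D4:**
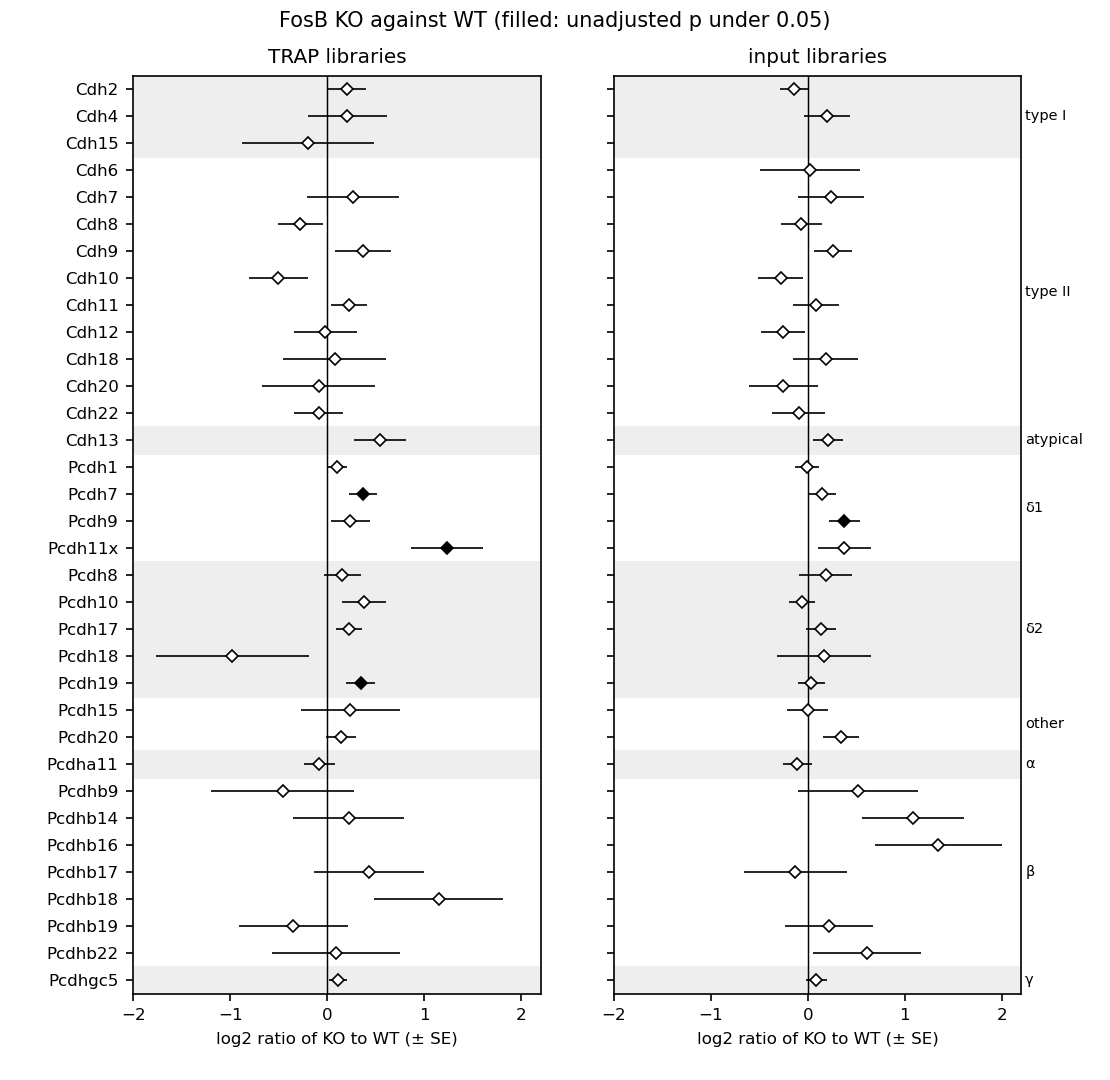
Log2 ratio of KO to WT with its standard error for each gene tested, in TRAP (left) and input (right), grouped by class as labelled at right. Filled diamonds had an unadjusted p under 0.05 (Pcdh11x, Pcdh7 and Pcdh19 in TRAP, Pcdh9 in input), and none had an adjusted p under 0.05.

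Partners of the family were described from lists of the pathway. Of 11 catenins and other partners of cadherin tails tested, 2 were higher in TRAP than in input and 4 were lower, beside 19.6% and 22.5% of all genes for this list and those that follow. Those with the largest differences were Vcl, which encodes vinculin, with a log2 ratio of -1.08 ± 0.25, and Ctnna1, which encodes an α-catenin, with -0.86 ± 0.17. Of 12 partners of protocadherin tails, 2 were higher and 3 were lower. The extremes were Wasf1 with 0.71 ± 0.07 and Cyfip1 with -0.51 ± 0.12, both of the WAVE complex, as are most genes of this list. Of 7 enzymes that cut cadherins, Adam10, the main sheddase of N-cadherin, was lower with -0.47 ± 0.11, and Ncstn, a subunit of γ-secretase, was higher with 0.48 ± 0.19 and an adjusted p of 0.0485 (edgeR, Benjamini-Hochberg). Of 11 regulators of the promoters of the clustered array tested, 2 were higher and 3 were lower, among them the cohesin subunits Smc1a with 0.63 ± 0.10 and Stag1 with -1.06 ± 0.11. Of 12 further cadherin superfamily genes tested, 2 were higher and 4 were lower, with Fat3 at -1.63 ± 0.11 and Fat1 at -1.04 ± 0.12. Between KO and WT none of these 5 lists held a gene with an adjusted p under 0.05 in edgeR, and by unadjusted p 5 genes were under 0.05 in TRAP (1, 1, 0, 1 and 2 in the order given) and 2 in input, both from the last list, beside 6.05% and 2.89% of all genes.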

How the data were processed

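Ribosome-bound (TRAP) and total (input) RNA of vHPC pools (3 mice per the labels, 3 to 4 in the methods) was sequenced from a SMARTer Stranded Total RNA-Seq library. The authors mapped reads to mm9 with TopHat and deposited raw counts per gene from HTSeq-count with Gencode vM1. Reads with several alignments were set aside, and the strand setting is not given in the sources used here. Reads assigned to no feature were 20.6% to 27.1% of uniquely aligned reads and stayed out of library sizes.

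Counts were fitted over all genes with edgeR 4.0.16 (quasi-likelihood test, TMM factors, robust dispersion, Benjamini-Hochberg adjustment) and limma 3.58.1 in R 4.3.3, after removal of genes with low counts (filterByExpr). DESeq2 1.42.0 was an alternative, as were other scalings and filters, a pool block and leaving out each pool. CPM values were computed on library sizes scaled by TMM factors over the 12 libraries. Exact tests on log2(CPM + 0.5) used scipy 1.17.1 in Python 3.11.15. Stretches of 75 bases, every 25 bases of exon, were placed with minimap2 2.31. Scripts were tested on simulated data.

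TRAP and input of a pool came from the same mice. Deviations from the group means correlated by 0.0579 to 0.106 within pools. The members and the gene lists were chosen with earlier results of these data known. Genes are named by level in each class, size of called ratios, smallest p between genotypes and largest called ratios in each pathway list. Cdh9, Cdh10, Cdh12, Cdh18, Pcdh18, Pcdhb22, Tek, Pou3f1, Cck and Cspg4 were named after their values were seen.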

Additional observations from a re-analysis of the deposited data

How the results depend on the processing

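DESeq2, other scalings, other filters and fits without the mitochondrial genes called the same 13 genes between TRAP and input over both genotypes, and leaving out a pool gave 9 to 13 (9 without KO pool 4). With the pool as a replicate block the count was again 13. In WT, leaving out a pool gave 2 to 9 genes (9 without WT pool 1, 2 without WT pool 2 or 3), and 3 to 12 at an unadjusted p under 0.05. In KO it gave 4 to 7 (4 without KO pool 4) and 9 to 12, and a fit of all 12 libraries gave 7 calls, without Pcdh8 and Pcdhb16, and 9 genes at an unadjusted p under 0.05. With no filter there were 10 calls in KO, without Pcdhgc5 and with Cdh13 and Pcdh17 added. Between genotypes in TRAP, leaving out a pool gave 0 to 1 calls (Cdh13 without WT pool 1) and 2 to 9 genes at an unadjusted p under 0.05, which was 5 with no filter on low counts. In input the count at an unadjusted p under 0.05 was 4 with no filter, 2 with DESeq2, 2 with the replicate block, 0 in the fit of 12 libraries and 0 to 3 without a pool. For the interaction it was 1 with total counts, 2 with no filter, 1 with the replicate block and 0 to 3 without a pool. The causes of these shifts were not tested. None of the 13 ratios called between TRAP and input over both genotypes changed sign without a pool, but uncalled ratios near 0 did, among them Pcdh19 (-0.09 to 0.10), Cdh2 (-0.09 to 0.13), Cdh15 (-0.08 to 0.43) and Pcdhb22 (-0.68 to 0.14). With 3 pools a group, and few counts on the β genes, Cdh6 and Pcdh18, differences of the size of their standard errors were not detectable. How much larger a difference had to be was not determined.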
